A study of Mus musculus with 3 samples.

Results

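The 69 genes described here were taken by symbol as genes of cytosolic ribosomal proteins, out of 22180 genes measured. By symbol 27 were counted with the small subunit and 42 with the large. They are the genes of the platform's gene table whose symbol is Rps or Rpl and a digit, or Rpsa, Rplp0, Rplp1 or Rplp2, without pseudogene symbols (-ps) and the S6 kinase genes (Rps6k). Each was read by the brightest probe set, by mean over the arrays, among those that name no other gene. A further 14 such symbols, among them Rpl10, Rpl12, Rps2 and Rps21, are named only by probe sets with several genes and are not among the 69. By this rule 58 of the 69 are core ribosomal proteins. The other 11 are paralogs or copies of core genes (Rpl3l, Rpl6l, Rpl7l1, Rpl10l, Rpl22l1, Rpl32l, Rpl39l, Rps4l, Rps23rg1 and Rps27l) and Rps19bp1, which encodes a binding partner of Rps19 and no ribosome subunit. The measurements come from peritoneal cells of 5 naïve female BALB/c mice, 10 to 11 weeks old, pooled before sorting. The labels give no genetic change or treatment for any group. Mast cell progenitors and mature mast cells shared a gate for few or no lineage markers, high c-kit, FcεRI, T1/ST2 and intermediate CD16/32, without CD127 and CD25. They were split by side scatter, low in progenitors, and by integrin β7, which was high in progenitors and below that in mature cells. Type 2 innate lymphoid cells (ILC2) carried T1/ST2, CD127 and CD25, lacked lineage markers, FcεRI and CD16/32, and had little or no c-kit. RNA of 100 cells per population was amplified and hybridised to 1 array, so no value has an error and no difference was tested.

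Ribosomal proteins fold around the ribosomal RNAs to form the subunit that reads the messenger RNA (small) and the subunit that joins amino acids (large). Their transcripts are among the most abundant of most cells, and many start with a C followed by a run of pyrimidines, the 5′ terminal oligopyrimidine motif, through which mTOR signalling controls their translation. The genes have many processed pseudogenes of nearly the same sequence in the mouse genome. A probe set that names a single gene may therefore also take up RNA of a copy, which was not tested.

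RefSeq start sites (GRCm38.p6) were listed for 54 of the 69 genes, in 63 windows of 300 bases. The starts of 7 genes are shown because they are the members with a pyrimidine start among those lower in progenitors than mature cells, and the only pair past 2-fold in the other direction. Each is 15 bases before and 15 bases from the annotated start on, and capitals mark the start C and the C or T run that follows it.
Rpl38: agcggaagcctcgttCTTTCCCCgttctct
Rpl28: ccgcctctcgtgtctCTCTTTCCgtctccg
Rpl35: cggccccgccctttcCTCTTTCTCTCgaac
Rpl14: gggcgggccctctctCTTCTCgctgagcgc
Rps6: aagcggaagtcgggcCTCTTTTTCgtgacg
Rps13: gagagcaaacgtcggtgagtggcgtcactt
Rplp0: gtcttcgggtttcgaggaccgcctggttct
The first 5 belong to genes at least 2-fold below mature cells in progenitors, and the last 2 to the genes at least 2-fold higher. Rpl38 lies at chr11:114668565-114668594 (plus strand), Rpl28 at chr7:4792950-4792979 (plus), Rpl35 at chr2:39005117-39005146 (minus) and Rpl14 at chr9:120571502-120571531 (plus). Rps6 lies at chr4:86857353-86857382 (minus), Rps13 at chr7:116334176-116334205 (minus) and Rplp0 at chr5:115559452-115559481 (plus). Each stretch spans the annotated start of transcription, so it holds promoter and the first bases of exon 1.

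A C at the annotated start followed by at least 4 bases that are each C or T was found in 11 of the 54 genes (20.4%), against 3.01% of all 27025 genes with a listed start. Among the 10 members at least 2-fold below mature cells in progenitors, 5 had it (Rpl14, Rpl28, Rpl35, Rpl38 and Rps6), against 6 of the other 44. Those 6 were Rpl15, Rpl32l, Rplp2, Rps10, Rps18 and Rps27. All 10 lower members had a mean log2 level of 8 or higher. Of the 38 members under that level, among them Rpl32l, Rplp2, Rps10 and Rps27, 0 were counted as lower. The lower and the other members were thus not matched on level, and the share with a pyrimidine start cannot be told apart from brightness. Where the C could lie within 10 bases of the annotated start, the counts were 7 of 10 and 25 of 44, and 34.4% of all genes held such a run. CGGAAG, the core bound by ETS family factors, was found on either strand of the window in 34 of 54 genes (63.0%), against 18.8% of all genes. It was found in 6 of those 10 lower members and in 28 of the other 44. TATAAA on either strand was found in 6 of 54 genes (11.1%), against 15.7% of all. These counts describe the letters near annotated starts of the C57BL/6J reference and were not tested.

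Values are log2 levels. The arrays' medians over single-gene probe sets were 6.32 in progenitors, 6.30 in mature cells and 6.30 in ILC2, and many dim genes lie close to them. Of all genes, 47.9% had exactly the same value on all 3 arrays. Triplets of levels are given throughout in the order progenitors, mature cells, ILC2. Cpa3, the mast cell carboxypeptidase, was at 12.30, 12.83 and 5.28. Kit was at 6.885, 10.29 and 6.63, Fcer1a at 5.37, 8.87 and 5.05, and Itgb7 at 7.60, 7.82 and 7.82. Of 10 mast cell markers 3 were below the array median in progenitors, 0 in mature cells and 5 in ILC2. Of the same 10, 4 had a level of 8 or more in progenitors, 7 in mature cells and 0 in ILC2. Of 10 markers of ILC2, 3 did in those cells (Il7r, Klrg1 and Arg1) and 0 in either mast cell population, while Gata3 (6.76, 6.76 and 6.82) and Rora (6.64 on all 3) did not separate the populations. Of 30 markers of macrophages, B cells, T cells, eosinophils, neutrophils and mesothelium only Ighm reached 8, at 8.43, 8.24 and 8.24. The log2 of the summed level of each of these 6 lists differed by less than 0.2 between the arrays, the widest being macrophages at 9.72, 9.56 and 9.64.

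Of the 69 members, 29 had their lowest level in progenitors, an intermediate level in mature cells and the highest in ILC2, and 2 the reverse order (Rplp0 and Rpl22l1). Over all genes the shares were 3.05% and 4.58%. Among the 662 other genes whose mean level was 8 or higher the counts were 155 and 86, against 21 and 1 of the 31 members of that level. Here and below this mean is taken over the 3 arrays compared, so a gene can reach it through a high value in 1 population. Of those 31 members 23 had a level of 8 or more in progenitors, 29 in mature cells and 30 in ILC2. Of the 662 others 75.8%, 85.6% and 87.9% did. Innate lymphoid cells had the highest value in 44 of 69 members and in 12.6% of all genes. At a mean level of 8 or higher this held for 26 of 31 members and for 35.5% of the 662 others. The median member level was 7.33 in progenitors, 7.40 in mature cells and 8.24 in ILC2. Because each array measured RNA of sorted cells in bulk, fewer cells carrying a transcript and less RNA per cell cannot be told apart.

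**Figure D1:**
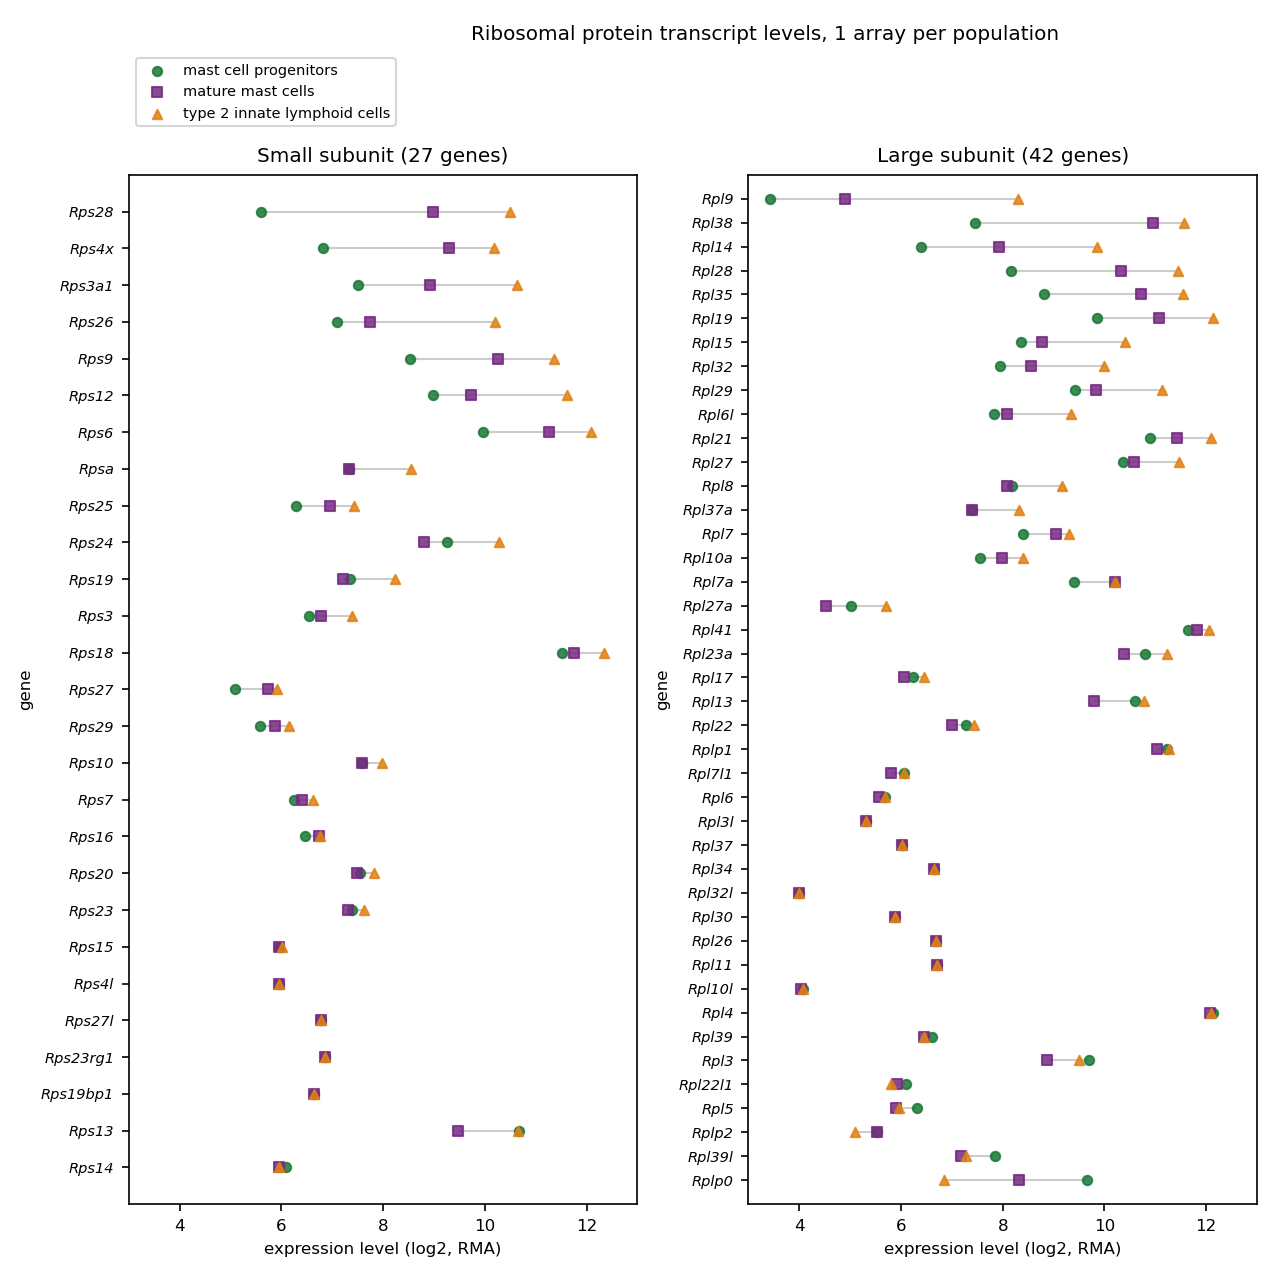
Log2 RMA level of each of the 27 small subunit and 42 large subunit genes (horizontal axis) on the array of each population (circle, square and triangle), ordered by the difference between progenitors and ILC2, with a grey line from the lowest to the highest value. For Rps28, at the top left, the levels run from 5.61 in progenitors to 10.50 in ILC2, and for Rplp0, at the bottom right, they run the other way from 9.66 to 6.84.

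Of the 69 members, 53 were above the array median on at least 1 array and 16 (23.2%) were below it on all 3, against 45.9% of all genes. A member was counted when 2 arrays differed by at least 4-fold (2 on the log2 scale) or 2-fold (1) and the brighter was above its array's median. In this way 26 members passed 2-fold in at least 1 comparison, against 4.12% of all genes, and 43 in none. Of the 31 members whose mean level was 8 or higher 22 passed, against 40.2% of the 662 other genes of that level. Any 2 of the 3 comparisons share an array, so they are not independent of each other.

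Between progenitors and mature cells 12 members passed 2-fold, and 10 of them were lower in progenitors. Of the 69 members 4 were at least 4-fold lower in progenitors (Rpl38, Rps28, Rps4x and Rpl28), against 0.834% of all genes, and 0 were at least 4-fold higher, against 0.113%. At 2-fold 10 were lower, against 1.93% of all genes, and 2 higher (Rplp0 and Rps13), against 0.509%. All 12 had a mean level at or above 8. Of the 662 genes outside the members with such a mean, 8.01% were 4-fold and 20.2% 2-fold lower, against 4 and 10 of 31 members, and 0.755% and 5.44% were higher, against 0 and 2 members. The median difference was -0.17 over small subunit members, 0 over large subunit members and 0 over all genes. When probe sets naming several genes were also used, 83 genes were counted, of which 20 passed 2-fold, 16 lower and 4 higher in progenitors, and 8 passed 4-fold, 7 lower and 1 higher.

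The lower members of the small subunit were Rps28, Rps4x, Rps9, Rps3a1 and Rps6. Rps28 encodes a small protein at the messenger RNA exit of the subunit, and was at 5.61, 8.99 and 10.50. It was low in progenitors alone, below the array median there, and at least 6.38-fold lower than in mature cells when that median takes the place of its value. Rps4x, the X-linked gene of protein S4, was at 6.81, 9.30 and 10.19, a 5.61-fold difference between the mast cell populations. Rps9, whose protein helps set decoding accuracy, was at 8.52, 10.26 and 11.37. Rps3a1 was at 7.50, 8.91 and 10.63. Rps6, the substrate of the S6 kinases, was at 9.97, 11.27 and 12.08. The last 3 were 3.34-fold, 2.67-fold and 2.46-fold lower in progenitors, and in all 5 genes progenitors were lowest and ILC2 highest.

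In the large subunit the lower members were Rpl38, Rpl28, Rpl35, Rpl14 and Rpl19. Rpl38, whose loss in mice disturbs the translation of homeobox transcripts, was at 7.46, 10.95 and 11.57, so that the mature and ILC2 levels lay 1.53-fold apart and the progenitor level 11.2-fold below the former. Rpl28 was at 8.16, 10.33 and 11.45, and 4.49-fold below mature cells in progenitors. Rpl35, at the rim of the exit tunnel of the nascent chain, was at 8.81, 10.71 and 11.55. Rpl14 was at 6.39, 7.92 and 9.85, with the progenitor level just above the array median. Rpl19, which forms a bridge between the subunits, was at 9.86, 11.07 and 12.14. The last 3 were 3.74-fold, 2.89-fold and 2.32-fold below the mature level, and in these 5 genes too progenitors were lowest and ILC2 highest.

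A pair of members ran the other way between the mast cell populations. Rplp0 encodes the base of the stalk that recruits translation factors. It was at 9.66, 8.33 and 6.84. Its second probe set was at 6.65, 6.65 and 6.70, so the difference rests on the brighter probe set. Rplp1 and Rplp2, the other stalk proteins, did not share it, at 11.22, 11.03 and 11.27 for Rplp1 and 5.52, 5.52 and 5.10 for Rplp2. Rps13 was at 10.67, 9.48 and 10.66, the 1 member at least 2-fold lower in mature cells than in both others. This pattern was found in 0.0451% of all genes and in 0.755% of the 662 other genes whose mean level was 8 or higher. Rpl3, near the catalytic centre of the large subunit, also had its lowest level in mature cells without reaching 2-fold, at 9.69, 8.86 and 9.50, as did Rpl13 at 10.60, 9.79 and 10.78 and Rpl23a at 10.80, 10.39 and 11.23. The other probe sets of Rpl3 did not share this order, at 7.67, 7.84 and 7.65 and at 6.51, 7.005 and 8.07. The second probe sets of Rpl13 and Rpl23a were also lowest in mature cells.

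Against ILC2 the difference of progenitors was wider. Of the 69 members 15 were at least 4-fold lower in progenitors, against 0.888% of all genes, and Rplp0 alone was at least 4-fold higher (7.06-fold), against 0.207%. At 2-fold 22 were lower, against 1.88%, and again 1 was higher, against 0.766%. Of the members 45 had a lower value in progenitors, 10 a higher and 14 the same, whereas over all genes 3677 were lower, 5863 higher and 12640 the same. At a mean level of 8 or higher, 27 members were lower and 4 higher, against 330 lower and 257 higher of 662 other genes. Among genes whose mean level was 8 or higher, 14 of 31 members were 4-fold and 19 were 2-fold lower, against 14.4% and 23.7% of the 662 others. That mean includes the ILC2 value, so these shares are not free of the difference they count. Higher by 4-fold and by 2-fold was 1 member, against 3.32% and 9.67%. The median difference was -0.83 over small subunit members and -0.19 over large subunit members, against 0 over all genes. With the mean of each gene's probe sets these medians were -0.39 and -0.45, so the order of the subunits turned with this choice.

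The 15 genes were 7 of the small subunit and 8 of the large. Rps28 was at least 18.2-fold lower, Rps4x 10.4-fold, Rps3a1 8.78-fold, Rps26 8.62-fold, Rps9 7.18-fold, Rps12 6.27-fold and Rps6 4.33-fold. Rps26, which lines the messenger RNA exit channel beside Rps28, was at 7.10, 7.74 and 10.21, and Rps12 was at 8.97, 9.72 and 11.62, so in both the mast cell populations lay within 2-fold and ILC2 apart. In the large subunit Rpl38 was 17.2-fold lower, Rpl14 11.0-fold, Rpl28 9.78-fold, Rpl35 6.69-fold, Rpl19 4.85-fold, Rpl15 4.13-fold and Rpl32 4.12-fold. Rpl9 was at 3.42, 4.89 and 8.31, below the array median in both mast cell populations, which gives a difference of at least 3.98-fold. It was counted by its measured difference of -4.89. Rpl15, at 8.35, 8.78 and 10.40, and Rpl32, at 7.95, 8.55 and 10.00, also had mast cell levels within 2-fold.

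Between 2-fold and 4-fold below ILC2 in progenitors were 7 more members. Rpl29 was at 9.42, 9.84 and 11.13, and Rpl6l, a copy of Rpl6, at 7.82, 8.09 and 9.34. Rpsa, which encodes the laminin receptor protein of the small subunit, was at 7.33, 7.33 and 8.55. These 3 were higher in ILC2 than in either mast cell population by at least 2-fold. Rpl21 (10.90, 11.43 and 12.09), Rpl27 (10.37, 10.58 and 11.47) and Rps25 (6.29, 6.95 and 7.42) had their mature level in between. Rps24 was at 9.27, 8.80 and 10.29, with the mature level lowest.

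**Figure D2:**
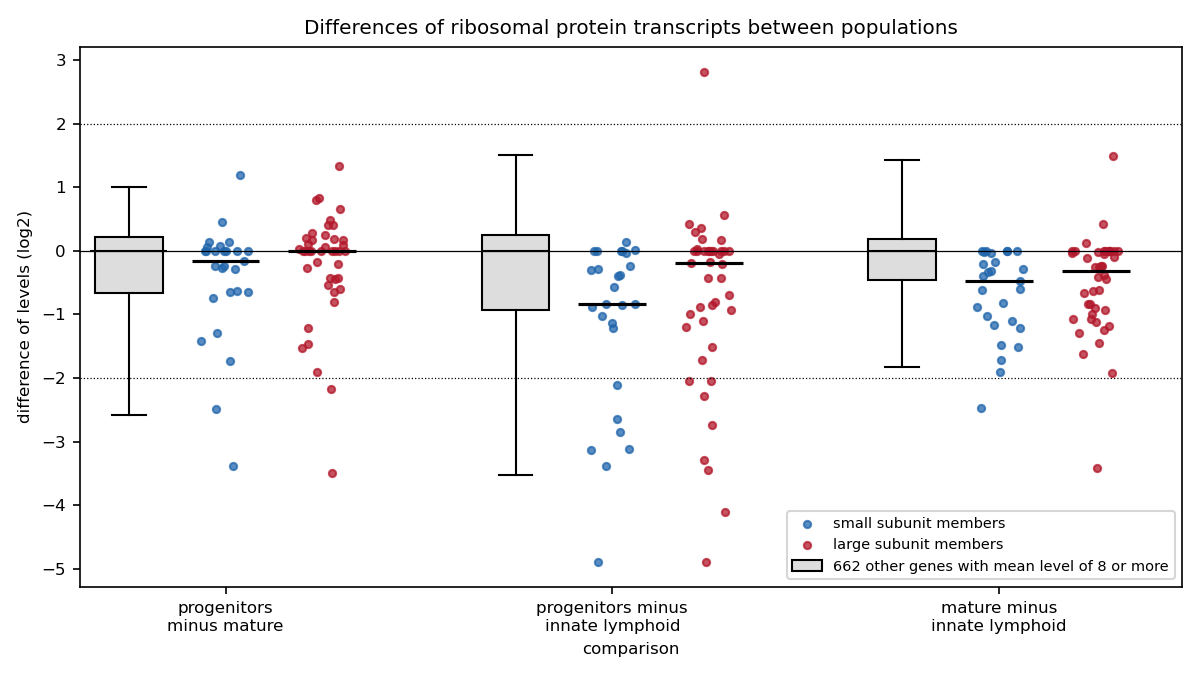
Log2 differences of the 27 small subunit and 42 large subunit members of every level (points, with a bar at the median) in each of the 3 comparisons, beside the 662 other genes whose mean level was 8 or higher (box, quartiles with a line at the median; whiskers, percentiles 5 and 95); dotted lines mark 4-fold and points are spread sideways for legibility. The medians of both subunits lie below 0 in the comparisons with ILC2, and Rplp0 is the point at 2.82.

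The comparison of mature cells with ILC2 does not use the progenitor array. Here 2 of the 69 members were in mature cells at least 4-fold lower, Rpl9 (at least 4.03-fold) and Rps26 (5.55-fold), against 0.401% of all genes, and 0 were at least 4-fold higher, against 0.573%. At 2-fold 18 were lower, against 1.26%, and Rplp0 alone was higher (2.80-fold), against 1.34%. Of the members 52 had a lower value in mature cells, 3 a higher and 14 the same, whereas over all genes 5122 were lower, 3606 higher and 13452 the same. The 3 higher were Rplp0, Rplp2 (5.52 against 5.10) and Rpl22l1 (5.92 against 5.80). At a mean level of 8 or higher, 29 members were lower and 1 higher, against 305 lower and 230 higher of 662 other genes. Among genes whose mean level was 8 or higher, 1 of 31 members was 4-fold and 15 were 2-fold lower, against 4.08% and 11.9% of the 662 others. Higher by 4-fold and by 2-fold were 0 and 1 member, against 3.17% and 8.16%. The median difference was -0.48 over small subunit members and -0.31 over large subunit members.

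The 16 members between 2-fold and 4-fold lower in mature cells ranged from 2.04-fold (Rps19) to 3.79-fold (Rpl14). Of these, Rps12 (3.74-fold), Rps3a1 (3.29-fold), Rpl15 (3.08-fold), Rps28 (2.85-fold), Rps24 (2.79-fold) and Rpl32 (2.73-fold) had the widest differences after Rpl14. Rps19, the gene most often mutated in Diamond-Blackfan anaemia, was at 7.35, 7.21 and 8.24. Rpl8 was at 8.17, 8.08 and 9.16. Rps13 was 2.26-fold lower in mature cells, while its progenitor and ILC2 levels lay 1.01-fold apart. With the mean of each gene's probe sets, 11 in place of 19 members differed by at least 2-fold in this comparison, all 11 lower in mature cells.

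The members were also counted by the array that stood apart from both others. At least 2-fold above both others in ILC2 were 15 members, against 1.1% of all genes and 10.7% of the 662 others, where 13 of 31 members had the pattern. At least 2-fold below both others in progenitors were 10 members, against 0.739% of all genes and 14.7% of those 662 genes, where 10 of 31 members had it. Mature cells were above both others in 0 members, against 1.08% of all genes and 4.98% of those 662. Rplp0 was above both others in progenitors, against 0.419% of all genes and 4.23% of those 662. In ILC2 Rplp0 was below both others, against 0.176% and 3.63%. The progenitor array was also low for other bright genes. A level of 8 or more in mature cells and ILC2, within 2-fold between them, was found in 489 genes, members included. Of these, 41 (8.38%) were at least 4-fold below both in progenitors. Of the 662 genes outside the members 446 met this condition, and 28 of them (6.28%) were at least 4-fold below both in progenitors. Of 15 members that met the same condition 2 were, Rpl38 and Rps4x. With the roles of the arrays exchanged, 0 of 371 genes were at least 4-fold below both in mature cells and 3 of 402 (0.746%) in ILC2. The part of this difference between arrays in the ribosomal values was not tested.

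The 43 members that passed 2-fold in no comparison include some with levels above 11 on every array. Rpl4 was at 12.13, 12.07 and 12.09, Rpl41 at 11.64, 11.82 and 12.06, Rps18 at 11.51, 11.75 and 12.35, and Rplp1 as given above. In these the arrays lay within 2-fold of each other. Rpl5 and Rpl11, whose proteins bind the 5S ribosomal RNA and restrain Mdm2, were at 6.31, 5.91 and 5.96 for Rpl5 and 6.70 on all 3 arrays for Rpl11. Exact ties on all 3 arrays were found in 11 members (15.9%). They were Rpl11, Rpl26, Rpl30, Rpl34 and Rpl37 of the core and 6 of the others (Rpl3l, Rpl32l, Rps4l, Rps19bp1, Rps23rg1 and Rps27l). The paralogs otherwise stayed within 2-fold, apart from Rpl6l. Rpl39l, a paralog of Rpl39 best known from testis, was at 7.84, 7.18 and 7.29, and Rpl22l1, the paralog of Rpl22, at 6.10, 5.92 and 5.80, whereas Rpl22 itself was at 7.27 in progenitors and 7.44 in ILC2, with mature cells 0.27 below progenitors. In the mast cell comparison Rpl9 passed the size of 2-fold but not the floor, and between mature cells and ILC2 Rpl27a (4.52 against 5.70) did likewise.

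The measured difference depended on the probe set. In 25 members several single-gene probe sets were present, and in 15 of these they disagreed on whether a 2-fold difference was reached, by size alone, in at least 1 comparison. Of the 26 members past 2-fold, 11 had a single probe set, among them Rpl38, Rpl28, Rps4x, Rpl14 and Rps6. Of the other 15, the probe sets disagreed in 12. The second probe set of Rps28 was at 4.02, 4.06 and 4.06 and that of Rps3a1 at 3.57, 3.79 and 3.79, so the differences of these genes rest on the brighter probe set, as do those of Rpl19, Rpl29 and Rpl9. Probe sets agreed for Rps12, where 8 were present, 6 of them with identical values of 9.01, 9.33 and 11.58. They also agreed on 2-fold for Rpsa, where the second was at 6.49, 6.59 and 8.33. The second of Rps26 was at 4.05, 4.02 and 5.70, below the median on every array, and its difference of -1.65 between progenitors and ILC2 was smaller than the -3.11 of the first. The reverse was seen for Rpl4 and Rpl41. A second probe set of Rpl4 was at 8.42, 11.47 and 11.75 and another of Rpl41 at 8.52, 10.69 and 11.80, low in progenitors, whereas their brightest probe sets were level.

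**Figure D3:**
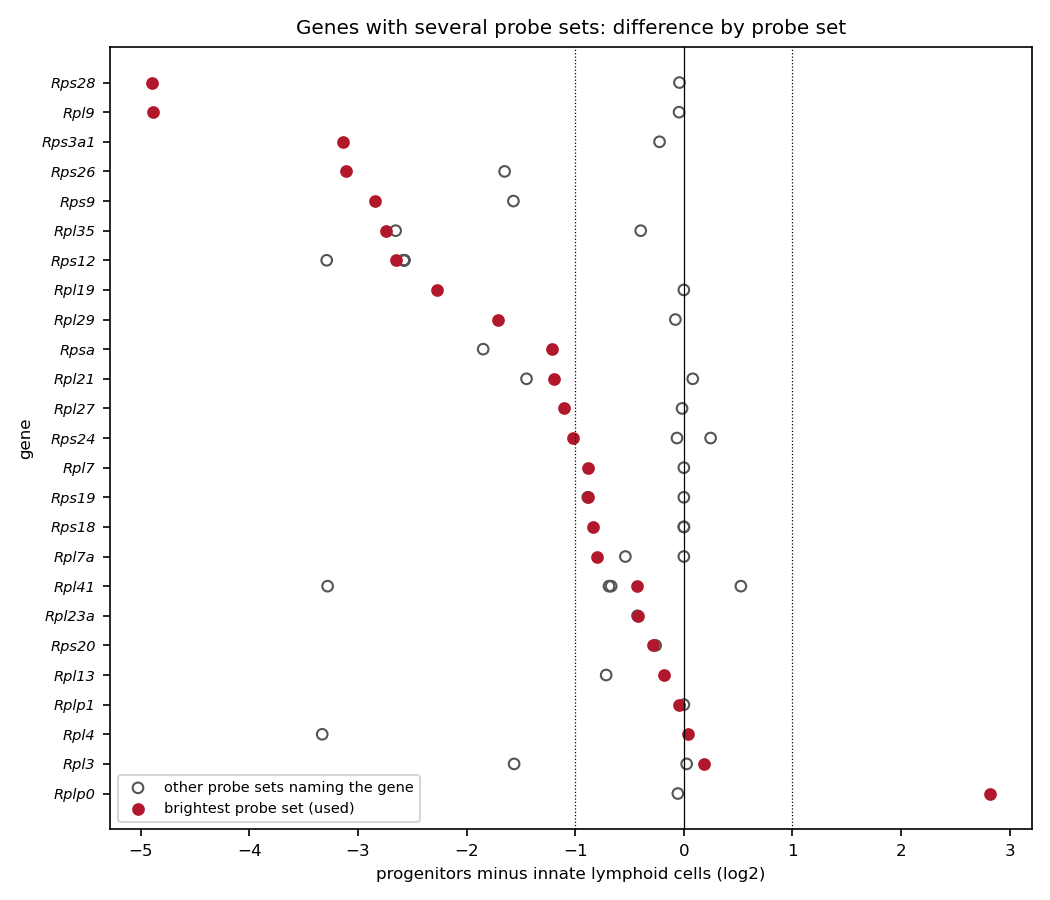
Log2 difference between progenitors and ILC2 (horizontal axis) for every single-gene probe set of the 25 members with several, with the probe set used here filled and the others open; dotted lines mark 2-fold. Rps28 and Rpl9 have a filled point at -4.89 and an open point near 0, and Rpl4 has a filled point at 0.04 and an open point at -3.33.

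Probe sets that the platform table pairs with a member and with other genes were left out of all counts above, except those over 83 genes. There were 57, and 36 of them name 1 member with only predicted genes or pseudogenes, so they read the member, its copies or both. They give values for genes whose own probe set was tied. The probe set naming Rpl34 and Rpl34-ps1 was at 7.28, 9.96 and 10.99, a difference of -3.71 between progenitors and ILC2, while the single-gene probe set of Rpl34 was at 6.64 on all 3 arrays. That naming Rpl26 and Gm15772 was at 7.66, 9.21 and 9.50, against 6.69 on all 3 for Rpl26. That naming Rpl30 and Gm12191 was level, at 11.76, 11.64 and 12.03. For Rps16, Rps16-ps2 and LOC100862433 together the values were 11.78, 8.88 and 11.78, low in mature cells, while the single-gene probe set of Rps16 was at 6.47, 6.74 and 6.77. The brightest such probe set was taken for each of 24 genes, 15 of them members and 9 read by joint probe sets alone. By 2-fold or more in size, with no floor, 8 of the 24 were below ILC2 and 0 above in progenitors, against 3.59% and 3.87% of the 1757 several-gene probe sets that name no member. In mature cells again 8 were below and 0 above, against 2.85% and 4.5%. Between the mast cell populations 4 were below and 2 above in progenitors, against 3.76% and 1.42%. Those 1757 were not reduced to the brightest per gene or matched on level. The pick of the brightest mattered for Rpl12. The probe set taken, of mean 9.28, was at 8.34, 9.08 and 10.42 and is among the 8 below ILC2 in progenitors. Another, of mean 9.25, was at 9.98, 8.94 and 8.82, higher in progenitors than in ILC2 by 1.15.

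The rest of the translation machinery was described with lists chosen for their roles. Eef1a1, which brings aminoacyl-tRNA to the ribosome, was at 8.01, 10.97 and 12.04, 16.3-fold below ILC2 in progenitors. Eef2, the translocation factor, was at 7.54, 9.10 and 10.18. The list of elongation and termination factors had 10 genes, Eef1e1 among them. Of these, 3 were at least 2-fold lower and 0 higher in progenitors than in ILC2, against 1.88% and 0.766% of all genes. A mean level of 8 or higher was found in 4 of the 10. Of the 662 genes of that level outside the members, 23.7% were lower and 9.67% higher. Compared with mature cells 3 genes of the list (Eef1a1, Eef2 and Eef1e1) were lower and 0 higher in progenitors. The shares were 1.93% and 0.509% of all genes and 20.2% and 5.44% of those 662. Eef1e1, a tRNA synthetase complex subunit rather than an elongation or termination factor, had its own order, at 6.54, 8.37 and 6.46. Fau, which encodes a ubiquitin-like protein fused to a small subunit protein, was at 9.65, 10.25 and 10.52, without reaching 2-fold.

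Of 24 measured initiation factors 2 had a mean level of 8 or higher. In progenitors 7 of the 24 were at least 2-fold below ILC2 and 0 were higher, against 1.88% and 0.766% of all genes. They included Eif4a2, a helicase of the cap-binding complex (6.24, 7.95 and 8.81), Eif3e (6.58, 7.07 and 8.36) and Eif3a (6.21, 7.61 and 7.61). In mature cells 4 were lower than in ILC2, among them Eif3h (7.01 against 8.93), and 0 higher, against 1.26% and 1.34%. Between the mast cell populations 2 were lower in progenitors, Eif3a and Eif4a2, against 1.93%. Of 6 other transcripts with pyrimidine starts or roles at the ribosome none reached 2-fold in any comparison, as in Tpt1 (11.63, 12.18 and 12.52), Npm1 (11.62, 11.30 and 11.91) and Naca (10.40, 10.40 and 10.62). The other 3, Btf3 (7.42), Ncl (9.71) and Vim (9.95), were exactly tied on all 3 arrays.

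None of the 33 measured genes of ribosome biogenesis and none of the 13 of mTOR control reached 2-fold in any comparison, but no gene of either list had a mean level at or above 8, and 20 and 7 of them were exactly tied on all 3 arrays. Mitochondrial ribosomal proteins, a separate set that serves the organelle's own ribosome, were counted in the same way. Of 71, 4 were at least 2-fold lower and 1 was higher in progenitors than in ILC2, against 1.88% and 0.766% of all genes. In mature cells 5 were lower and 1 higher than in ILC2, against 1.26% and 1.34%. Between the mast cell populations 1 was lower and 1 higher in progenitors, against 1.93% and 0.509%. Mrpl52 was at 6.60, 6.83 and 9.64 and Mrpl13 at 4.94, 4.90 and 7.46, both high in ILC2, whereas Mrpl57 was highest in progenitors at 7.81, 6.50 and 6.50. Of the 71, 3 had a mean level at or above 8 and 33 were tied, so the counts of this list and of the cytosolic members come from different ranges of level.

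**Figure D4:**
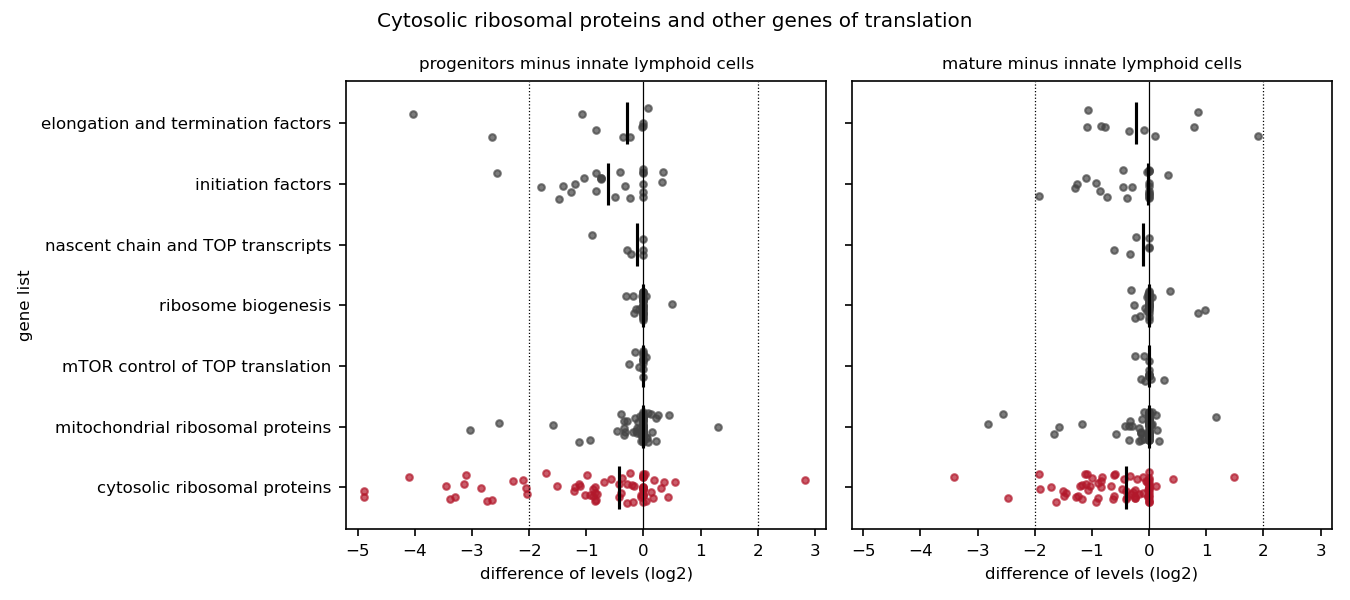
Log2 differences of the genes in 6 lists of translation genes (grey points) and of the 69 cytosolic ribosomal proteins (red points), for progenitors minus ILC2 (left) and mature cells minus ILC2 (right), with a bar at each median and dotted lines at 4-fold; points are spread vertically for legibility. The leftmost grey point on the left is Eef1a1 at -4.03, and the lists of biogenesis and mTOR genes lie around 0.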

How the data were processed

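The values are log2 expression levels of 41345 probe sets, deposited by the authors and made by RMA (per the submitters' processing notes, with no software or version named). That they are log2 was judged by their range. As a method, RMA subtracts background, sets arrays to a common distribution and combines probes by median polish. The build is not given in the sources used here. The platform's gene table named 1 gene for 23521 probe sets, several for 1814 and none for 16010. All 69 members matched RefSeq (GRCm38.p6) by Entrez identifier, with unchanged symbols, 67 of them protein coding. The 1 array per population limits the precision, and no test was possible. Differences were computed with Python 3.11.15 and pandas 2.3.3, and the counting was tested on simulated data. Where the dimmer value lay below its array's median, the fold was taken over that median. Levels of different probe sets are not strictly comparable. They were used to pick probe sets, to name genes and to split genes at a mean level of 8, and no transcript is said to be more abundant than another. The members, lists and thresholds were chosen with earlier results of these data known. Rpl6l, Rpl32l and Rps23rg1 were put among the paralogs after the gene table was seen. Genes were named by a rule: all members past 4-fold, the widest past 2-fold (up to 8 per direction and comparison), the 5 highest and 5 lowest of each subunit by mean level, the stalk genes, paralogs with their core partners, members whose probe sets disagree, and up to 4 per list and comparison past 2-fold. Some genes the rule gives are left undescribed. Fau, Tpt1, Npm1, Naca, Rpl5, Rpl8, Rpl13, Rpl23a, the tied members, those with a pyrimidine start and the joint probe sets were chosen with values known. Alternatives were 2 other floors, median-centring, quantile normalization, the mean of probe sets, probe sets naming several genes, and core members alone.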

Additional observations from a re-analysis of the deposited data

How the results depend on the processing

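No paired analysis was possible because each population has 1 array. Of the recomputed values 59 stayed within the limits used, which were 1.5 times for counts and 0.1 for medians. A reversal could be scored only for medians that differed from 0, and none was scored. Counts were compared without their direction. Median-centring moved no result past them, nor did either change of the floor. Quantile normalization moved the small subunit median of progenitors minus innate lymphoid cells to -0.64. The mean of all single-gene probe sets moved it to -0.39 and the large subunit median to -0.45, and lowered the members past 2-fold between mature mast cells and innate lymphoid cells to 11. With probe sets naming several genes, 83 genes were counted, and progenitors minus mature mast cells gave 8 past 4-fold (1 higher, 7 lower), 20 past 2-fold (4 higher, 16 lower), and medians of 0 (small) and -0.10 (large). The large subunit median against innate lymphoid cells was then -0.45, and the small subunit median of mature mast cells minus innate lymphoid cells -0.61. Without paralogs and Rps19bp1 the large subunit median was -0.43 for progenitors and -0.45 for mature mast cells minus innate lymphoid cells, and the small subunit median of the latter -0.61. The cause was not tested. Dim genes lie near background, where a difference may not be seen, and 100 cells per population and 1 array leave amplification and mouse-to-mouse error unmeasured.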
